A study of Mus musculus with 6 samples.

Results

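The 10 genes described here, Sox10, Egr2, Pou3f1, Pou3f2, Nab1, Nab2, Zeb2, Yap1, Wwtr1 and Tead1, encode the transcription regulators that carry a Schwann cell into and through myelination. They were named for their known roles among the 36793 genes of a deposited table; the rule uses no measured value, but it was set with earlier results of these data known. All 10 were present and all 10 passed the filter on low counts, which left 16809 genes for testing. RNA was sequenced in bulk from lumbar dorsal root ganglia, which hold sensory neurons, their satellite glia and the Schwann cells of their axons. There were 3 wild-type mice (GluN1+ in the protocol) and 3 mice labelled as knockouts of the NMDA receptor (GluN1-). The study's title places the deletion of Grin1, the gene of the GluN1 subunit, in Schwann cells. The labels give the genotype but neither what drives the deletion nor strain, sex or age, and name no treatment, injury or time point in either group.

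The labels call the cell type Schwann cells, but the RNA was that of whole ganglia. Markers of neurons, 7 genes in all, summed to 11096 to 14488 CPM (counts scaled to 1000000 per library) in the wild-type libraries and to 13664 to 15582 CPM in the knockout libraries. The 7 Schwann cell markers, of which Sox10 is one and some recur in lists below, summed to 2422 to 2951 CPM in wild type and 3196 to 3632 CPM in knockout. No marker of any list was at 0 in all 6 libraries, but some were close to it. Of the 4 oligodendrocyte markers 3 were below the filter on low counts, with at most 1 count of Opalin and 2 of Olig2 in any library. Of the 4 markers of T and B lymphocytes 2 were below it. In such bulk samples fewer cells of a type and less RNA per cell cannot be told apart.

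Schwann cells arise from the neural crest under SOX10, an HMG-box factor that stays on in all glia of the lineage. When a cell takes up a large axon, SOX10 and the POU factors encoded by Pou3f1 and Pou3f2 switch on Egr2, a zinc finger factor that drives the myelin genes and is needed to keep them on. The NAB proteins are corepressors that bind EGR factors and are needed with EGR2 for myelination. ZEB2 represses inhibitors of differentiation such as Sox2 and Hey2. YAP and its paralog TAZ, the product of Wwtr1, are coactivators held in check by the Hippo kinases, and they act on DNA through TEAD factors such as TEAD1.

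The promoters of 4 members are shown because they carry the letters bound by other members or by the factors known for fast induction of EGR genes. Windows from 250 bases before to 50 bases after an annotated start came from RefSeq on GRCm38.p6, and 7 of the 10 members had at least 1 such window. Where a member had several, the one with the most matches to the motifs marked here is shown. Capitals mark only the motifs named here for each window, and each sequence runs 5′ to 3′ on the gene's strand. In the Egr2 window (chr10:67537619-67537918, plus strand) they mark the POU octamer ATGCAAAT, 127 bases before the start, and a CArG box, the site of serum response factor (CC, 6 bases of A or T, GG), 72 bases before it. For other Egr2 starts the same octamer lay 128 or 188 bases before the start. The Egr2 window from 67537316 to 67537615 held no octamer and a different CArG box, CCTTTTTTGG. In the Nab1 window (chr1:52500399-52500698, minus strand) capitals mark 3 matches to the EGR site GCGTGGGCG or GCGGGGGCG, in either orientation, while a TEAD match 207 bases before the start stands in lower case. In the Yap1 (chr9:8004547-8004846, minus strand) and Wwtr1 (chr3:57575861-57576160, minus strand) windows they mark the TEAD site GGAATG.
Egr2: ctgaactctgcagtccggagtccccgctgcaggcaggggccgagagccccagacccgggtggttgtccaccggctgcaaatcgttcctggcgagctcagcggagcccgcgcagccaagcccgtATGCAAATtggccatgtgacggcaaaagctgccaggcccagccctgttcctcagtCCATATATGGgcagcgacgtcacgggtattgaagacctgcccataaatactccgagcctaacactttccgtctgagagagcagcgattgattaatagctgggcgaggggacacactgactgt
Nab1: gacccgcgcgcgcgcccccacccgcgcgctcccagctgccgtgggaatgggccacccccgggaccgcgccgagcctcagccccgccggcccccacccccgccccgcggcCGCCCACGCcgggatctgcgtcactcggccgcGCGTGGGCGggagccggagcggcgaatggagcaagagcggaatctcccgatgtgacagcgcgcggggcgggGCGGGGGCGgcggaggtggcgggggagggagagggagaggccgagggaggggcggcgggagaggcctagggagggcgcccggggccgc
Yap1: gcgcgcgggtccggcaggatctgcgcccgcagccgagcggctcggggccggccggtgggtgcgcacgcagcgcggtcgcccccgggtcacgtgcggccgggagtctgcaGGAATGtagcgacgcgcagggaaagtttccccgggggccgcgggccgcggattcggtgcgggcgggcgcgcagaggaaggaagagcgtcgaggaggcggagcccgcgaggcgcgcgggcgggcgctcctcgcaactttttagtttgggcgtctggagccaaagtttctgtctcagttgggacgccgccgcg
Wwtr1: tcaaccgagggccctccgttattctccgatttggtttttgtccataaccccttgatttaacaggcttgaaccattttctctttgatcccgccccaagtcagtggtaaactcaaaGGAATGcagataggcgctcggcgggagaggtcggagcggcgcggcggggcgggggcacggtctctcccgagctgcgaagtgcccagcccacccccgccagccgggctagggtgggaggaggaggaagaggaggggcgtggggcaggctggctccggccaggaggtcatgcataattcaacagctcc

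Of 32851 such windows over all genes, 1.74% held the octamer, 1.63% a CArG box, 3.47% an EGR site and 14.7% a TEAD site, counted on both strands. In total 7 motifs were searched in the 15 windows of the 7 members. The EGR site was found for Nab1 alone among them (1 of the 15 windows). The octamer (3 windows) and the CArG box (4 windows) were found for Egr2 alone. The TEAD site was found in 6 of the 15 windows, from 5 members, Nab1, Zeb2, Wwtr1, Yap1 and Egr2. The shares over all genes are per window. Windows of a gene can overlap and share a site, as those of Wwtr1 do. The SOX site (ACAAAG or ACAATG), which 28.6% of all windows hold, was found in 1 window of Zeb2. The CRE (TGACGTCA) and the E-box bound by ZEB factors (CAGGTG), held by 1.79% and 20.2% of all windows, were found in none of the 15. The matches are descriptions of the letters and were not tested as binding sites.

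Libraries held 28526704 to 36249163 expected counts. Knockout libraries 5 and 6 agreed within sampling noise, with 0 of 10258 genes differing by chi-square at an FDR of 0.05, against 3382 to 7317 for the other pairs. They were counted as 1 sample, which leaves 3 wild-type and 2 knockout samples. The libraries also differed by base composition. For genes whose longest transcript is at least 60% GC, the median log2 deviation from the gene's mean was -0.27 in wild type 1, 0.17 in wild type 2 and -0.14 in wild type 3, and it was -0.13 in knockout 4 and 0.19 in knockouts 5 and 6. Grin1 itself averaged 86.3 ± 25.3 CPM (SD, n = 3) in the wild types against 99.7 ± 24.8 CPM (SD, n = 2) in the knockouts. Neurons of the ganglion express it, so it does not check the labels. Knockout 4 also held more haemoglobin RNA, 1.48% of normalised counts against 0.313 to 0.582% elsewhere. Its 4 skeletal muscle markers summed to 32 CPM, against 1.86 to 8.88 CPM in the other libraries. The labels do not say whether the mice were litter mates or processed together, so p-values measure only the spread between these samples.

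The comparison asks whether the regulators of myelination differ in the ganglion when Schwann cells lack the receptor. None of the 10 passed the test: 0 of 10 had an adjusted p under 0.05 in edgeR's quasi-likelihood test with Benjamini-Hochberg adjustment over all genes, where 0.0952% of all genes (16 of 16809) did. DESeq2, which called 1.52% of all genes, and limma-voom also called 0 of the 10. Before adjustment Tead1, Wwtr1 and Egr2 had p under 0.05 in edgeR, 3 of the 10 against 9.14% of all genes. Of the 10, 9 had a positive log2 fold change, with a median of 0.21, where 50.2% of all genes tested were positive and their median was 0.00.

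In 6 of the 10, Egr2, Nab1, Zeb2, Yap1, Wwtr1 and Tead1, both knockout samples lay above all 3 wild-type samples in CPM. Over all genes 11.8% did so, and 15.5% lay wholly below, as 0 of the 10 did. The same 6 stood apart on the deposited TPM values, which scale each count by transcript length and library. On that scale, which rests on the same reads, 10.9% of all genes lay wholly above and 15.8% wholly below. With knockout 4 alone against the wild type 8 of the 10 lay above (22.2% of all genes), and with knockouts 5 and 6 alone 6 did (30.8% of all genes). The summed level of the 10 genes was 337 to 347 CPM in the wild-type libraries and 415 to 428 CPM in the knockout libraries, to which Zeb2, Sox10 and Nab1 contribute most. Beside this, the Schwann cell markers given above and the 4 satellite glia markers (2548 to 2668 CPM in wild type, 2806 to 3123 CPM in knockout) did not overlap between the groups either, while the summed neuron markers did. The part of a change in glial RNA as a whole in the members' values was not tested.

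With the 6 libraries counted separately, 0 of the 10 passed, where 0.871% of genes did. With a correction for GC content as well, 3 passed, Tead1 (adjusted p = 0.0379), Wwtr1 (0.0333) and Zeb2 (0.0496), all higher in the knockout, where 2.62% of genes passed in edgeR. Both settings treat the near-identical libraries 5 and 6 as separate mice, and with GC correction on the 5 samples 0 of the 10 passed.

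**Figure D1:**
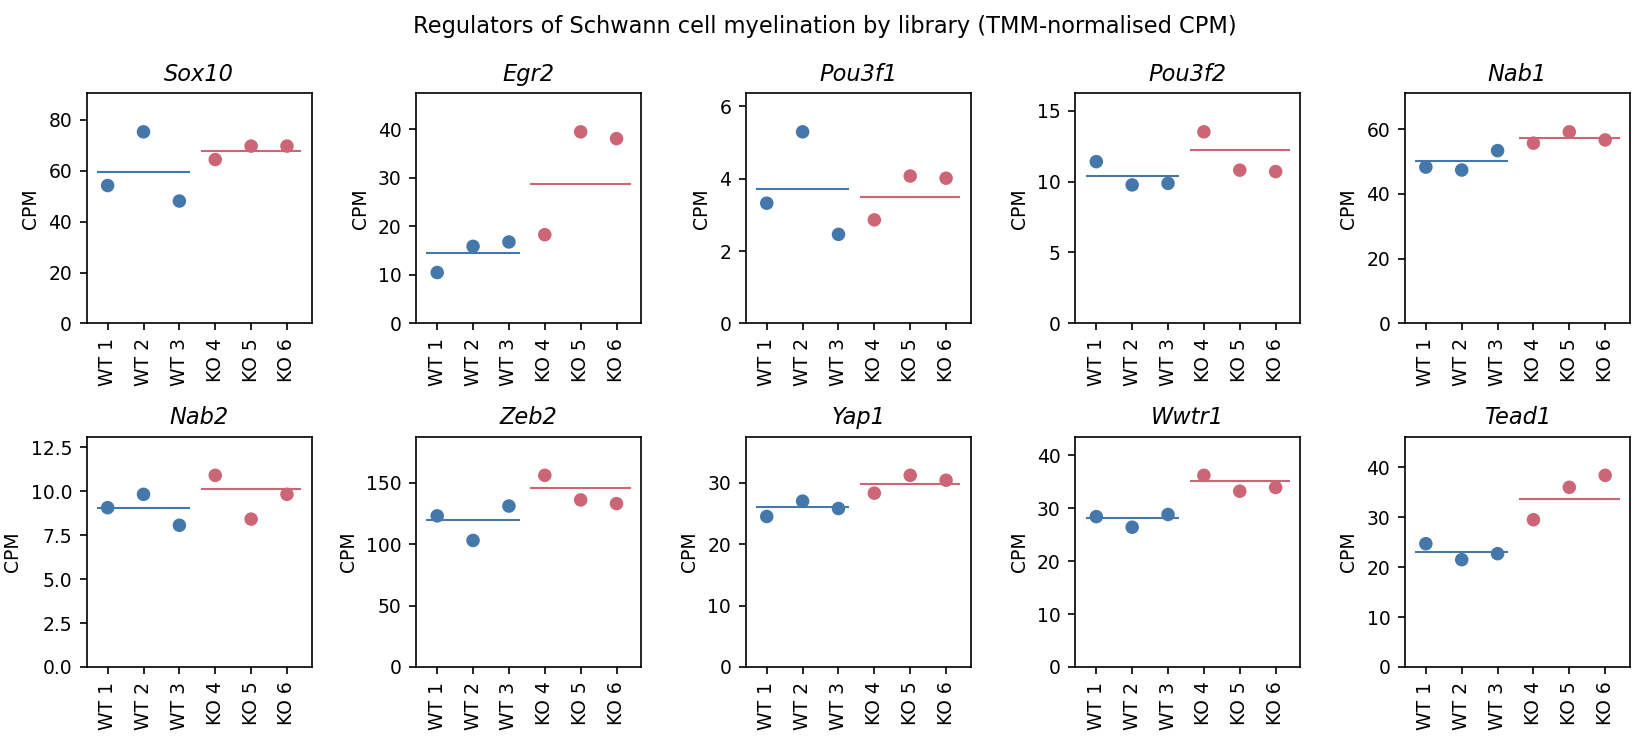
CPM of each of the 10 regulators in the 6 libraries (points; WT, wild type; KO, knockout; lines, group means, in which knockouts 5 and 6 count as 1 sample; each vertical axis starts at 0). Egr2 is at 39.5 and 38.1 CPM in knockouts 5 and 6 and at 18.3 CPM in knockout 4, and Wwtr1 and Tead1 are higher in every knockout library than in any wild-type library.

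Sox10, the lineage factor, measured 54.2, 75.3 and 48.1 CPM in wild-type libraries 1 to 3 against 64.4, 69.7 and 69.7 CPM in knockout libraries 4 to 6. Wild type 2 was the highest of all and the groups overlapped. The log2 fold change was 0.18 (standard error 0.20, 95% interval -0.29 to 0.65; edgeR adjusted p = 0.788). Sox10 lies on chromosome 15 from 79154908 to 79165240. Its single transcript is 61.8% GC. Like GC-rich genes as a class, Sox10 was highest among the wild types in wild type 2, but it was lowest in wild type 3, where that class was lowest in wild type 1. After GC correction the log2 fold change was 0.07, and without wild type 2 it was 0.39.

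The POU factors are expressed as a cell prepares to myelinate and are low in the adult. Pou3f1 was at 3.32, 5.29 and 2.46 CPM in the wild types against 2.86, 4.07 and 4.01 CPM in the knockouts, from 72 to 168 counts per library. The groups overlapped throughout. The log2 fold change was -0.08 (standard error 0.34, 95% interval -0.91 to 0.75), so that neither direction could be told at this depth and spread. Its sign turned without wild type 2 (0.27) and without knockout 4 (0.14). Pou3f2 was at 11.4, 9.76 and 9.87 CPM in the wild types against 13.5, 10.8 and 10.7 CPM in the knockouts. Only knockout 4 lay above all wild types, and the log2 fold change was 0.23 (standard error 0.15, edgeR adjusted p = 0.677). Both genes have 1 transcript in the annotation and lie on chromosome 4, Pou3f1 from 124656807 to 124660655 and Pou3f2 from 22482780 to 22488366 (GRCm38).

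Egr2, the factor that drives the myelin genes, had the largest difference of the 10. Its levels were 10.5, 15.9 and 16.8 CPM in wild type and 18.3, 39.5 and 38.1 CPM in knockout. Knockout 4 lay just above the highest wild type, and libraries 5 and 6 were the highest of all. The 2 knockout samples differed from each other by 2.13-fold, while the wild types spanned 1.61-fold. Wild types averaged 14.5 ± 3.49 CPM (SD, n = 3) and knockouts 28.8 ± 14.7 CPM (SD, n = 2). The log2 fold change was 1.00 (standard error 0.34, 95% interval 0.18 to 1.82; edgeR adjusted p = 0.479). Without knockouts 5 and 6 it was 0.35, and without knockout 4 it was 1.44, neither of which passed. The value therefore rests mainly on the sample made of libraries 5 and 6. After GC correction it was 0.97. Egr2 lies on chromosome 10 from 67535475 to 67542188. All its expected counts were whole, from 350 to 1378 per library.

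Among its paralogs, which are induced by activity and growth factors in neurons and other cells, Egr3 was at 1.32, 1.57 and 1.74 CPM in the wild types against 3.33, 3.27 and 3.50 CPM in the knockouts. Unlike Egr2, Egr3 was at nearly the same level in all knockout libraries (log2 fold change 1.12, standard error 0.21; edgeR adjusted p = 0.235, and 0.0106 to 0.706 over the alternatives). DESeq2 called Egr3, as did edgeR on 6 libraries. Egr1, the best known immediate early gene of the family, was at 13.3 to 19.1 CPM in wild type and 14.3 to 17.9 CPM in knockout, with a log2 fold change of 0.01 that turned to -0.13 with GC correction. Egr4 had 3 to 10 counts per library and was below the filter. The difference between these paralogs was not tested.

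Nab1, a corepressor of EGR factors, was at 48.3, 47.4 and 53.4 CPM in the wild types against 55.7, 59.2 and 56.7 CPM in the knockouts. The groups did not overlap, though knockout 4 and wild type 3 were close. This was a log2 fold change of 0.20 (standard error 0.11, 95% interval -0.06 to 0.45; edgeR adjusted p = 0.611). It lies on chromosome 1 from 52457294 to 52500679. Nab2, its paralog and fellow corepressor, was at 9.06, 9.82 and 8.06 CPM in the wild types against 10.9, 8.41 and 9.82 CPM in the knockouts. The groups overlapped, and libraries 5 and 6, where Egr2 was highest, were within the wild-type range of Nab2. For Nab2 the log2 fold change was 0.15 (standard error 0.15, 95% interval -0.21 to 0.51), and it turned to -0.06 with GC correction on 6 libraries. Nab2 overlaps Stat6 and Nemp1 on the opposite strand on chromosome 10 (127660918 to 127668568), its counts were in part not whole, and the strand setting of the quantification is not given in the sources used here, so reads of these neighbours among its counts cannot be told apart from its own.

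In TPM, the unit that allows levels of different genes to be compared, Egr2 stood at 0.991, 1.32 and 1.57 times the level of Nab2 in wild type, at 1.32 times in knockout 4 and at 4.04 and 3.23 times in knockouts 5 and 6. Against Nab1 it was at 0.271, 0.435 and 0.405 times in wild type and at 0.425, 0.880 and 0.891 times in knockout. On both scales knockout 4 was within the wild-type range.

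Zeb2, the repressor of inhibitors of differentiation, was at 123, 103 and 131 CPM in the wild types against 156, 136 and 133 CPM in the knockouts. The groups did not overlap, but knockout 6 was close to wild type 3. Its log2 fold change was 0.29 (standard error 0.14, 95% interval -0.04 to 0.62; edgeR adjusted p = 0.577). Its longest transcript is 40.6% GC, and wild type 2, the library in which GC-rich genes were highest among the wild types, was the lowest for Zeb2. After GC correction the log2 fold change was 0.38. Zeb2 lies on chromosome 2 from 44983632 to 45117395 and overlaps Zeb2os on the opposite strand, and its counts were in part not whole. It is also expressed in neurons and macrophages. The 6 macrophage markers summed to 53.7 to 67.6 CPM in wild type and 49.9 to 69.1 CPM in knockout. Of the genes ZEB2 is known to repress, Sox2 had a log2 fold change of -0.03, Hey2 one of 0.14 and Ednrb one of 0.22; these were chosen after their values were seen, and none passed. The paralog Zeb1 was at 93.7 to 110 CPM in wild type and 94.4 to 103 CPM in knockout, a log2 fold change of -0.04 that was 0.01 with GC correction and on the TPM scale.

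Yap1, the Hippo-regulated coactivator, was at 24.5, 27.0 and 25.8 CPM in the wild types against 28.3, 31.2 and 30.4 CPM in the knockouts. All knockout libraries were above all wild types, and the log2 fold change was 0.20 (standard error 0.11, 95% interval -0.07 to 0.47; edgeR adjusted p = 0.617). Wwtr1, which encodes TAZ, was at 28.4, 26.4 and 28.8 CPM in the wild types against 36.2, 33.2 and 33.9 CPM in the knockouts. Its log2 fold change was 0.32 (standard error 0.11, 95% interval 0.06 to 0.58; edgeR adjusted p = 0.473), and it lay between 0.27 and 0.39 under the 16 alternatives. Yap1 (chromosome 9, 7931999 to 8004596) and Wwtr1 (chromosome 3, 57455649 to 57575910) each overlap a gene model on the opposite strand, Gm20416 and the pseudogene Gm16016.

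Tead1, the DNA-binding partner of YAP and TAZ (chromosome 7, 112679318 to 112906807), had the smallest p of the 10. It was at 24.7, 21.5 and 22.7 CPM in the wild types against 29.5, 36.0 and 38.4 CPM in the knockouts, so that every knockout library was above every wild type. Wild types averaged 23.1 ± 1.6 CPM (SD, n = 3) and knockouts 33.6 ± 5.48 CPM (SD, n = 2). The log2 fold change was 0.54 (standard error 0.14, 95% interval 0.21 to 0.88; edgeR adjusted p = 0.342). It was 0.36 without knockouts 5 and 6 and 0.70 without knockout 4. In TPM, Tead1 was at 0.372 to 0.491 times the level of Yap1 in wild type and at 0.540 to 0.636 times in knockout, without overlap. For every other ratio of 2 members that was formed, the groups overlapped. Those not to Sox10 were Nab1 to Nab2, Wwtr1 to Yap1, Pou3f2 to Pou3f1, and Egr2 to Nab1 and to Nab2. None of these ratios was tested. The expected counts of Tead1 were not all whole. The mean length of its 14 transcripts, weighted by abundance, ran from 7490 to 8762 bases in wild type and 7602 to 8729 bases in knockout.

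Of the other TEAD factors, Tead3 was at 3.02, 2.86 and 4.10 CPM in the wild types against 4.59, 6.69 and 5.26 CPM in the knockouts. Its log2 fold change was 0.68 (standard error 0.23, edgeR adjusted p = 0.463). Tead2 and Tead4 were at 0.23 and 0.25 on the log2 scale. In CPM all 4 TEAD genes were higher in both knockout samples than in all wild types, as 11.8% of all genes were, and none passed. Tead2 and Tead4 had unadjusted edgeR p-values of 0.215 and 0.361, and Tead4 had 27 to 43 counts per library. Tead2 turned to -0.07 on log2(TPM + 1).

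**Figure D2:**
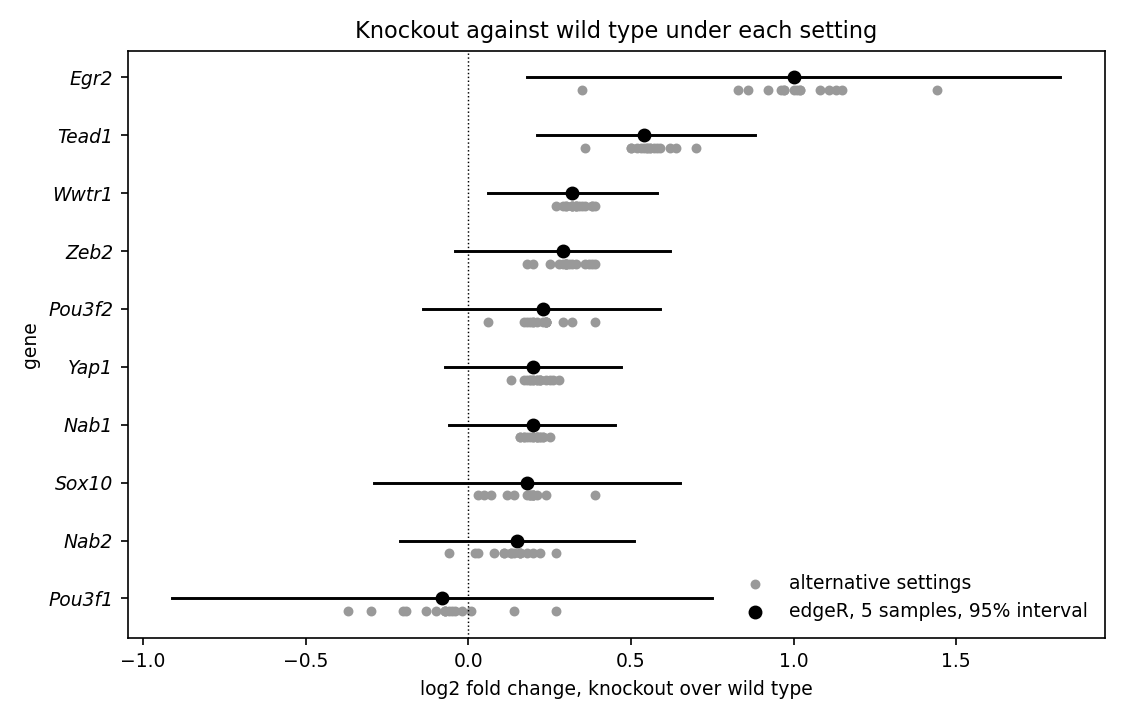
Log2 fold change of each regulator, knockout over wild type, in edgeR on 5 samples (black points, with 95% intervals) and under the 16 alternative settings (grey points). The intervals of Egr2, Tead1 and Wwtr1 lie above 0 before adjustment over all genes, and the grey points of Egr2 spread from 0.35 to 1.44.

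The remaining paralogs were low or level. Sox8, which overlaps with Sox10 in function, was at 4.71 to 5.22 CPM in wild type and 4.59 to 6.67 CPM in knockout (log2 fold change 0.21, and -0.03 without knockout 4). Sox9, a factor of the early glial lineage and of cartilage, was at 0.692 to 1.81 CPM in wild type and 1.85 to 2.21 CPM in knockout (0.73, standard error 0.39). Pou3f3 and Pou3f4 had at most 4 counts in any library. Of the 11 paralogs 8 were tested, 7 of them with positive values and a median of 0.24. In edgeR 0 passed, and 2 had an unadjusted p under 0.05, where 9.14% of all genes did.

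Mean TPM over the 6 libraries was highest for Sox10 at 52.1 (39.9 to 60.7), then 43.6 for Zeb2 (31.5 to 52.5) and 31.1 for Nab1 (27.1 to 34.3). Egr2 followed at 17.6 with a range, 7.82 to 30.2, that was the widest of the 10 as a ratio of highest to lowest, ahead of Yap1 at 15.1 (13.0 to 16.9) and Wwtr1 at 14.6 (12.2 to 16.5). Nab2 was at 8.64 (7.48 to 10.2) and Tead1 at 7.73 (5.26 to 10.6), and the POU factors were lowest, Pou3f2 at 3.84 (3.35 to 4.59) and Pou3f1 at 2.7 (1.83 to 3.83). Among neighbours in this order the ranges were apart only between Wwtr1 and Nab2 and between Tead1 and Pou3f2, and the range of Egr2 reached from that of Nab2 to that of Nab1.

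Relative to Sox10 in the same library, the groups overlapped for all 9 other regulators. The log2 ratio of Egr2 to Sox10 in TPM was -2.51, -2.36 and -1.64 in wild type, -1.93 in knockout 4 and -0.95 and -0.99 in knockouts 5 and 6. Knockout 4 thus fell within the wild-type range on this scale, and libraries 5 and 6 above it. For Tead1 the ratio was -2.79, -3.53 and -2.57 in wild type and -2.64, -2.67 and -2.46 in knockout. For Yap1 it was -1.78, -1.78 and -1.80 in the 3 knockout libraries, between the wild-type values of -2.10 and -1.44. Wild type 2, where Sox10 was highest, gave the lowest ratio among the wild types for 7 of the 9, all but Egr2 and Pou3f1. These ratios were not tested.

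**Figure D3:**
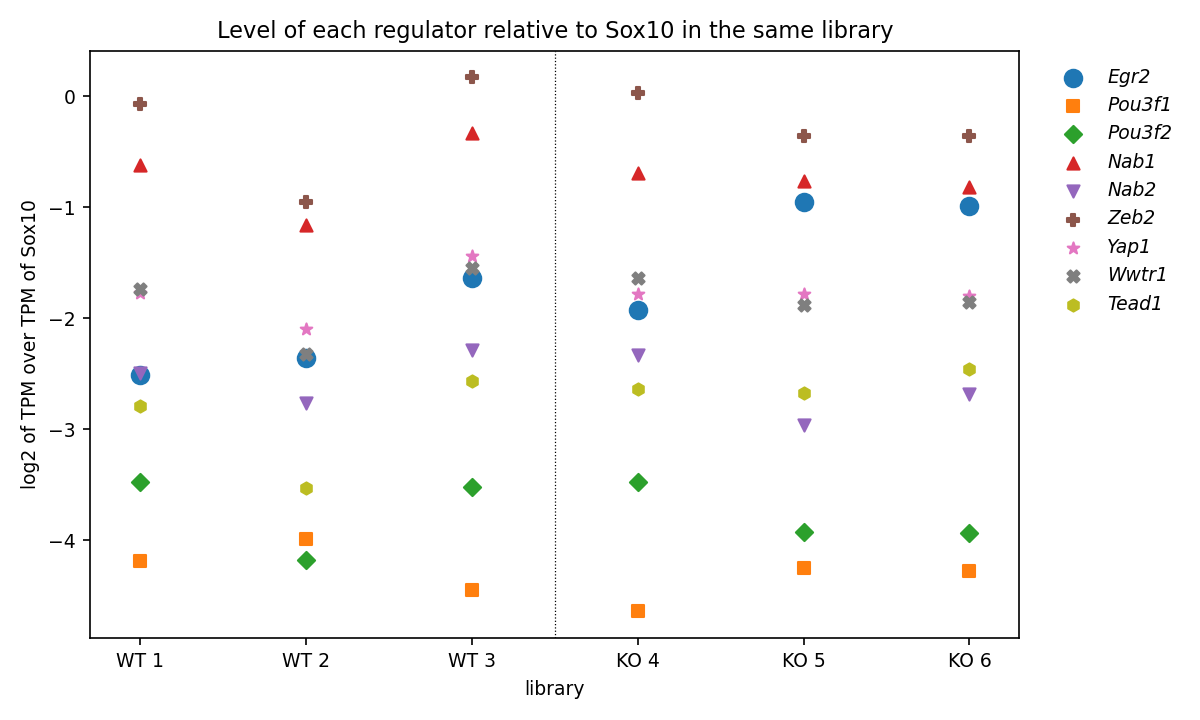
Log2 of the TPM of each regulator over the TPM of Sox10 in the same library (WT, wild type; KO, knockout; the dotted line divides the groups). Egr2 (large points) is at -0.95 and -0.99 in knockouts 5 and 6 and at -1.93 in knockout 4, and wild type 2 is the lowest of the wild types for 7 of the 9 genes.

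The genes that these regulators act on are described by counts over lists, beside the 50.2% of all genes that were positive. For this and the lists below, 9.14% of all genes had an unadjusted p under 0.05 in edgeR. Both knockout samples lay above all wild types for 11.8% of all genes, and DESeq2 called 1.52%. All 15 myelin genes known to be driven by SOX10 and EGR2 were tested. All 15 had positive log2 fold changes, from 0.12 to 0.84 with a median of 0.36, and 0 passed in edgeR (lowest adjusted p = 0.372), DESeq2 or limma-voom, while 8 had an unadjusted p under 0.05. In 11 of the 15 both knockout samples lay above all wild types. Fa2h, which makes the hydroxylated fatty acids of myelin lipids, was at 14.5, 25.6 and 26.5 CPM in the wild types against 31.7, 48.1 and 47.2 CPM in the knockouts, the list's largest difference. Gjb1, the gap junction protein connexin, was at 4.78, 6.14 and 6.46 CPM and at 8.78, 8.41 and 8.57 CPM. Dhh, the hedgehog ligand that Schwann cells send to the nerve sheath, was at 32.8, 40.8 and 34.7 CPM and at 48.6, 54.3 and 49.3 CPM, and Ncmap, a protein of non-compact myelin, had a log2 fold change of 0.44. For Gjb1 and Dhh knockout 4 was level with knockouts 5 and 6, unlike for Egr2.

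Of the signals upstream of these factors, 9 of 13 had positive values (median 0.15, and 0.10 without knockouts 5 and 6) and 0 passed in edgeR (lowest adjusted p = 0.221), with 4 at an unadjusted p under 0.05. The secreted Schwann cell protein encoded by Lgi4 was at 59.5, 64.9 and 76.6 CPM in the wild types against 112, 112 and 118 CPM in the knockouts (log2 fold change 0.76, standard error 0.13). DESeq2 called Lgi4 alone of the list, and so did edgeR with no filter on low counts (adjusted p = 0.0326) and with 6 libraries (0.0355). The fit on 6 libraries counts knockouts 5 and 6 as separate mice. The neuregulin receptor subunits Erbb3 and Erbb2 were at 0.48 and 0.53, and Nrg1, the axonal signal that sets myelin thickness, at 0.38 on the log2 scale. Adgrg6, the adhesion receptor that raises cyclic AMP to induce Pou3f1 and Egr2, was at 0.23 and is named here after its value was seen.

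Factors of immature and repair Schwann cells, many of which oppose the myelin program, gave 8 positive and 4 negative of 12 tested, with a median of 0.19 that was 0.09 without knockouts 5 and 6. In edgeR 0 passed and 0 had an unadjusted p under 0.05. Jun, which antagonises Egr2 and is also induced in injured neurons, was at 43.6, 78.8 and 50.5 CPM in the wild types against 66.3, 122 and 121 CPM in the knockouts. As for Egr2, knockouts 5 and 6 were highest, but knockout 4 lay within the wild-type range. Notch1 had a log2 fold change of 0.50, its target Hey1 one of 0.31, and Id4, an inhibitor of basic helix-loop-helix factors, one of -0.27. Without knockouts 5 and 6 Jun was at 0.20, Notch1 at 0.16 and Hey1 at 0.11 on the log2 scale. Pax3 and Olig1 were below the filter.

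Among cofactors, 9 of 12 had positive values (median 0.11), and 0 passed or had an unadjusted p under 0.05 in edgeR. DESeq2 and limma-voom also called 0 of the cofactors, of the immature and repair list and of the Hippo list. The chromatin remodelers Smarca4 and Chd4 were at 0.42 and 0.29 on the log2 scale with standard errors of 0.32 and 0.23, and without knockouts 5 and 6 they were at -0.06 and 0.04. Chd4 was at 0.15 without wild type 1. The polycomb methyltransferase Ezh2 was at 0.23 and the zinc finger factor Zfp24 at 0.18. The list's median turned to -0.06 without knockouts 5 and 6 and was 0.21 without knockout 4.

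Of the Hippo kinases and partners of TEAD factors, 10 of 13 had positive values (median 0.11, and 0.07 without knockouts 5 and 6) and 0 passed in edgeR, with 2 at an unadjusted p under 0.05. Amot, a scaffold that binds YAP, was at 17.2, 17.9 and 18.1 CPM in the wild types against 22.3, 22.9 and 21.6 CPM in the knockouts. Wwc1, an upstream Hippo component, was at 0.57, and the TEAD cofactors Vgll3 and Vgll4 were at 0.27 and 0.18 on the log2 scale. A signature of 22 YAP and TAZ target genes known from tumours had 20 tested members, 18 positive and 2 negative, with a median of 0.29 that was 0.12 without knockouts 5 and 6. Here too 0 passed in edgeR (lowest adjusted p = 0.225), with 5 at an unadjusted p under 0.05, while DESeq2 called 3, Axl, Gadd45a and Igfbp3. Of the named genes, edgeR called Igfbp3 with no filter on low counts (adjusted p = 0.0139), and Igfbp3 (0.0401) and Gadd45a (0.0473) with 6 libraries. That last fit counts knockouts 5 and 6 as separate mice.

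Of the signature's genes, Igfbp3, a binding protein of insulin-like growth factors, was at 7.98, 9.66 and 11.9 CPM in the wild types against 18.6, 24.7 and 25.0 CPM in the knockouts (log2 fold change 1.15, standard error 0.20). Axl, a receptor tyrosine kinase, was at 34.3, 35.6 and 36.0 CPM and at 49.3, 47.4 and 45.5 CPM. Gadd45a, which is also a gene of injured sensory neurons, was at 0.74 and Myof, a membrane repair protein, at 0.82. The classical targets Ccn1 and Ccn2, named after their values were seen, were at 0.03 and 0.73 on the log2 scale with standard errors of 0.34 and 0.44. Many of these genes are made by fibroblasts and vessels. The 5 fibroblast markers summed to 612 to 821 CPM in wild type and 602 to 786 CPM in knockout, but they were split. The collagens Col1a1 and Col3a1 were at 0.61 and 0.63 on the log2 scale with standard errors of 0.12 and 0.15, each higher in every knockout library than in any wild type, while Dcn, which makes up most of the sum, was at -0.47 with groups that overlapped. The 4 endothelial markers summed to 57.0 to 62.1 CPM in wild type and 67.1 to 71.7 CPM in knockout. Taken singly, only 1 of these 4 had both knockout samples above all wild types, and 0 passed in edgeR (lowest adjusted p = 0.587). The sums of the 4 markers of mural cells, the contractile cells of vessel walls, were apart the other way. They were at 236 to 295 CPM in wild type and 172 to 178 CPM in knockout. Rgs5, which makes up most of that sum, was at -0.79 (standard error 0.15, edgeR adjusted p = 0.235), and Notch3 was at 0.58. These 5 markers are named after their values were seen, and none passed. The part of fibroblasts and vessel cells in the list's values was not tested.

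**Figure D4:**
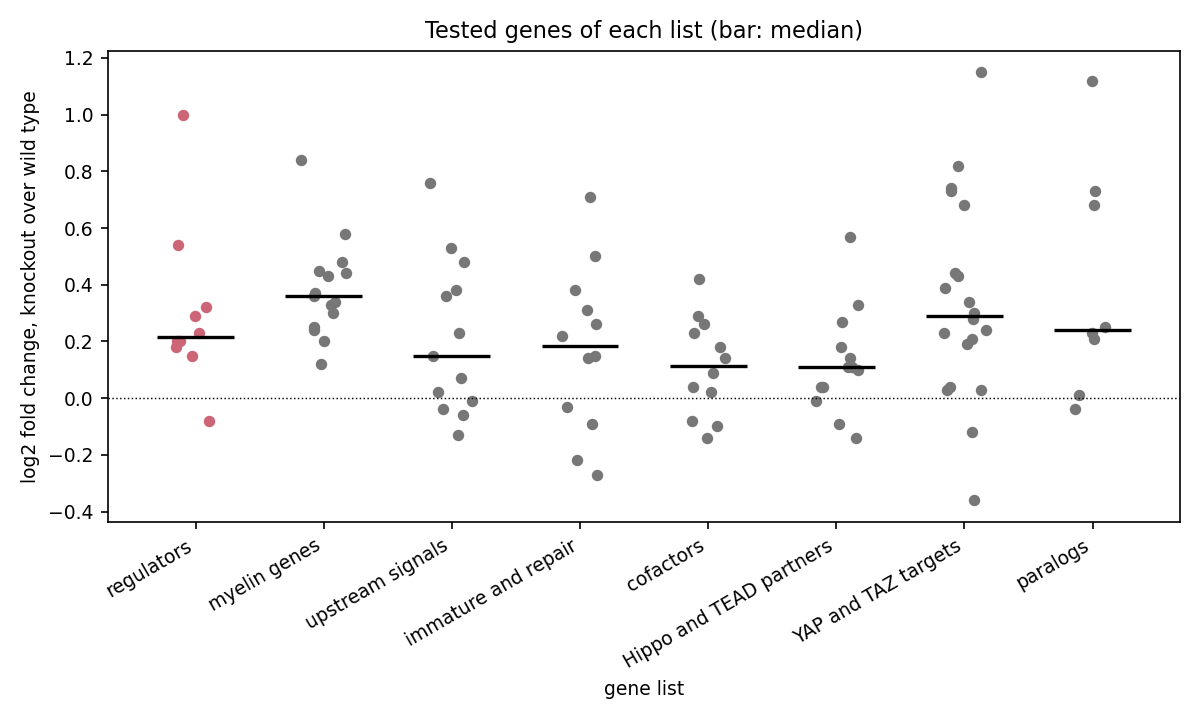
Log2 fold change, knockout over wild type, of the tested genes of each list (points, spread sideways for legibility; bars, medians; red, the 10 regulators). All 15 myelin genes lie above 0, with a median of 0.36, and the medians of the other lists run from 0.11 to 0.29.

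Among 13419 named protein-coding genes with at least 1 CPM on average, those whose centred log2 CPM lay nearest to Egr2 by Euclidean distance over the 5 samples were Col4a1, Arid5b, Doc2b, Hspg2 and Wnk4, at distances of 0.304 to 0.369. Col4a1, a basement membrane collagen, was at 60.1, 91.0 and 92.6 CPM in the wild types against 111, 180 and 177 CPM in the knockouts. Hspg2, the basement membrane proteoglycan perlecan, was at 67.3, 102 and 84.4 CPM and at 114, 197 and 198 CPM. Both had the same order as Egr2 in placing libraries 5 and 6 on top and knockout 4 next, which follows from how they were picked. The genes nearest to Sox10 were Lrrc46, C1ql3, Fyn, Cd276 and Haghl, at 0.0422 to 0.124. These distances over 5 samples are a description with no test.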

How the data were processed

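Bulk RNA sequencing of lumbar dorsal root ganglia from 3 wild-type and 3 knockout mice was analysed from the deposited gene tables. Per the submitters' processing notes, Trimmomatic 0.38, STAR 2.6.0a and RSEM 1.3.0 were used with GRCm38. Neither annotation release nor strand setting was stated in those notes. The tables hold, per the file headers, the authors' RSEM expected counts, TPM, FPKM and transcript lengths, of which FPKM values, as the authors deposited them, were not tested. GENCODE on GRCm38 gave symbols, positions and GC content. Gene IDs without a symbol held 0.224 to 0.263% of counts.

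Expected counts were rounded, and the near-identical knockout libraries 5 and 6 were summed, leaving 5 samples. Genes were filtered with filterByExpr, scaled by TMM and tested with edgeR 4.0.16 (quasi-likelihood, R 4.3.3), with Benjamini-Hochberg adjustment at 0.05 over all 16809 genes tested. Intervals are 95%, and the standard error is the log2 fold change over the root of F. limma 3.58.1 and DESeq2 1.42.0 were alternatives, as were other scaling, no filter, log2(TPM + 1 or 0.1), GC correction and leaving out samples. GC correction together with 6 libraries was chosen after seeing the data. The fits were tested on simulated data.

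The members and lists were chosen with earlier results of these data known. Named genes were all members and paralogs, up to 4 genes of each other list with the smallest edgeR p, and for Sox10 and Egr2 the 5 nearest genes in centred log2 CPM; exceptions are marked. Total counts ran from 28526704 to 36249163 per library.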

Additional observations from a re-analysis of the deposited data

How the results depend on the processing

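The count of regulators past the threshold was 0 of 10 in the main edgeR fit and 0 in 15 of 16 alternatives, including 0 under each omission of a sample, and 3 with GC correction and 6 libraries, an alternative chosen after seeing the data. The count over all genes, 16, was 144 with 6 libraries counted separately, 81 with no filter on low counts, 255 with DESeq2 and 433 with GC correction and 6 libraries. It ran from 7 (without knockout 4) to 16 when samples were left out, with 8 without wild type 2 and 10 without wild type 3. Leaving out knockout 4, or knockouts 5 and 6, leaves 1 knockout sample, assumed to vary like the wild types.

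Signs turned for 7 named genes, none of which passed; the cause was not tested. Pou3f1 (-0.08) was 0.01 with limma-voom and ran from -0.37 to 0.27 over the omissions, with -0.30 without wild type 3. Nab2 (0.15) was -0.06 with GC correction and 6 libraries. Sox8 (0.21) ran from -0.03 without knockout 4 to 0.43, with 0.25 without wild type 2. Egr1 (0.01) was -0.13 with GC correction, also with 6 libraries, -0.12 without knockouts 5 and 6, and -0.09 to 0.21 over the wild-type omissions. Zeb1 (-0.04) was 0.01 on log2(TPM + 1), on log2(TPM + 0.1), with GC correction and without knockouts 5 and 6, and -0.09 to 0.04 over the wild-type omissions. Tead2 (0.23) was -0.07 on log2(TPM + 1) and -0.08 on log2(TPM + 0.1). Smarca4 (0.42) was -0.06 without knockouts 5 and 6. Of all single-gene values under the alternatives, 633 kept direction and side of the threshold, 20 passed it newly, 0 lost it and 19 turned sign. Of the list medians, 101 shifted by less than the SD of that median among the wild types, and 27 by more. With 2 knockout samples, and counts from 27 to 43 for Tead4 and 72 to 168 for Pou3f1, differences in the low genes were poorly determined.

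No paired analysis was possible because the replicate numbers in the labels run on across the groups and share none.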
